A study of Homo sapiens with 12 samples.

Results

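The 10 genes described here encode integrin subunits that make up receptors for the extracellular matrix: ITGB1, ITGA1, ITGA2, ITGA3, ITGA5, ITGA6, ITGA9, ITGAV, ITGB5 and ITGB8. They were taken by name from a count table of 60670 genes with counts and were read in all 12 libraries. The 10 genes were set beside 16 other integrin subunits, some of which can pair with them. All 10 passed the filter on low counts. All cells were H295R, an adrenocortical carcinoma line of human origin that produces steroids, harvested at 70% confluence. The 3 groups of 4 libraries were DLK1 over-expression (OE), DLK1 knock-down (KD) and wild type (WT), each with replicates 3, 4, 5 and 6. Strand-specific libraries of total RNA were read in pairs to ask how the transcriptome differs with the dose of DLK1, whose product is a transmembrane relative of the Notch ligands. The way DLK1 was lowered or raised, and whether a line was 1 clone or a pool, are not given in these sources. Nothing in the labels says that replicates came from separate cultures, so the p-values rest on a spread between samples that may be technical.

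An integrin is a pair of an alpha and a beta subunit that spans the plasma membrane, binds matrix proteins outside the cell and links them through talin and kindlin to the actin cytoskeleton. The beta1 subunit pairs with many alpha subunits, and the alpha subunit largely sets the ligand: alpha1 and alpha2 bind collagens, alpha3, alpha6 and alpha7 bind laminins, alpha5 binds fibronectin at its RGD motif, and alpha9 binds tenascin C and osteopontin among others. The alphaV subunit pairs with several beta subunits to bind RGD ligands, and with beta8 it binds latent TGF-beta. In the adrenal cortex, steroid-making cells rest on a basement membrane and are surrounded by collagen, laminin and fibronectin.

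Between 9303266 and 13797397 reads were assigned to genes per library. DLK1 levels matched the labels, with 3213 ± 148 CPM (counts scaled to library size) in OE, 1338 ± 113 CPM in KD and 2675 ± 132 CPM in WT (SD, n = 4 each), with no overlap between groups. KD replicate 3 stood apart from its group. The chi-square per degree of freedom between library pairs was 5.74 to 9.94 for pairs with it and 3.64 to 4.02 for the other KD pairs, against 2.77 to 3.75 within OE and 2.68 to 3.39 within WT. Called changes that involve KD, and the list counts, are therefore also described without that library. All 7 adrenocortical markers looked for passed the filter, with summed levels of 1387 to 1513 CPM in OE, 1163 to 1387 CPM in KD and 1454 to 1556 CPM in WT. Of the fibroblast markers 1 of 6 passed (summed 16.4 to 18.9 CPM in OE, 14.9 to 20.1 CPM in KD and 16.6 to 21.0 CPM in WT), and PDGFRB, LUM and COL1A2 had at most 2 counts in every library. None of 5 endothelial markers passed, and of the immune markers 2 of 5 did, with PTPRC, CD3E and CD68 at no more than 2 counts. The chromaffin markers TH, DBH and PNMT also had at most 2 counts, and 3 of 5 markers of other epithelia passed. In RNA from whole cultures, fewer cells making a transcript and less of it in each cell cannot be told apart.

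The promoters of 4 integrin genes are shown because these genes were called against WT: ITGA1 and ITGAV, which were lower in KD, ITGA5, which was lower in OE, and ITGB1, the subunit they share. Each sequence runs 5′ to 3′ from 250 bases before to 50 after the first transcript start that RefSeq lists on GRCh38.p14. Capitals mark matches, on either strand, to letters bound by factors active in adherent or adrenal cells.
ITGB1, chr10:32958181-32958480, minus strand: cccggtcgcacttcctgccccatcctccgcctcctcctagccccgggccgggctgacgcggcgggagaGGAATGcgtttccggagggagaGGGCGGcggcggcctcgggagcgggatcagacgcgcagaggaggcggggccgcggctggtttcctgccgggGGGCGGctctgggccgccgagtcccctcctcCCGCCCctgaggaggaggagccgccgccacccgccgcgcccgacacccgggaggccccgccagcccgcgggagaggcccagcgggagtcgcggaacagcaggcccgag
ITGA1, chr5:52787666-52787965, plus strand: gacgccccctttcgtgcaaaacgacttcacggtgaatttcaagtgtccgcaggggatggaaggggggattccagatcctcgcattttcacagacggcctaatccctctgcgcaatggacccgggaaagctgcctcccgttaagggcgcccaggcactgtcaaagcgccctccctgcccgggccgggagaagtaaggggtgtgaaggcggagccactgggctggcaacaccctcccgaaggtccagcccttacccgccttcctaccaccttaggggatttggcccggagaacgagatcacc
ITGAV, chr2:186589806-186590105, plus strand: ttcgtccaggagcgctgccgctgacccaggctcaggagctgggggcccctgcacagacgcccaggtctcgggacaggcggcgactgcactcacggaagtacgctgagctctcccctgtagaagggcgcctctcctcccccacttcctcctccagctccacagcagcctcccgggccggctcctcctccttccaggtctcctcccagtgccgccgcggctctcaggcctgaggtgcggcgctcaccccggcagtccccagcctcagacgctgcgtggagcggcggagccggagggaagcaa
ITGA5, chr12:54419217-54419516, minus strand: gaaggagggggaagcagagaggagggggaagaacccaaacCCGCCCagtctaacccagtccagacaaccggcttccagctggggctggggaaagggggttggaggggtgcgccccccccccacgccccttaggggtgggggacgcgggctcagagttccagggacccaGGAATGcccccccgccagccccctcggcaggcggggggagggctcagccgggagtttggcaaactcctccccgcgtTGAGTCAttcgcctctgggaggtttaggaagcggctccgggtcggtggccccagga
The letters searched were TGANTCA (AP-1), GGGCGG (SP1), AAGGTCA (NR5A1), GGAATG (TEAD), TGGGAA (RBPJ), TGACGTCA (CRE) and TATAAA (a core promoter element). The ITGB1 window held 3 SP1 matches and 1 TEAD match, and the ITGA5 window held 1 match each for AP-1, SP1 and TEAD. Neither the ITGA1 nor the ITGAV window held any of the letters. Among 35116 RefSeq promoters of the same length, 45.0% held the SP1 letters, 14.0% the TEAD letters and 7.71% the AP-1 letters, so these matches describe the windows only. G and C made up 78.3% of the bases for ITGB1, 61.7% for ITGA1, 70.7% for ITGAV and 69.3% for ITGA5. Promoters were matched for 8 of the 10 genes, without ITGA3 and ITGA9.

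ITGB1 and the laminin receptor subunit ITGA7, which is not one of the 10 genes, were the most abundant integrin transcripts per length. Levels between genes are given here as CPM per kilobase of the gene's exons. ITGA7 stood at 91.7 CPM per kb in OE, 101.0 in KD and 113.0 in WT, and ITGB1 at 90.6 in OE, 85.9 in KD and 99.8 in WT. The libraries of these genes overlapped in OE and were separate in KD and WT. Of the 10 genes, those that followed in WT were ITGA9 at 36.9, ITGA1 at 24.0, ITGAV at 15.8, ITGA5 at 6.93, ITGB5 at 4.28 and ITGA2 at 2.83 CPM per kb. Their WT libraries did not overlap from one of these genes to the next. ITGAE, not one of the 10 genes, lay between the last pair at 4.19 CPM per kb in WT, with libraries that overlapped those of ITGB5. ITGA3 (0.985), ITGA6 (0.368) and ITGB8 (0.0633) were the least abundant of the 10 genes in WT. The lengths of the longest annotated transcripts in place of all exons put ITGA1 at 41.5 and ITGA9 at 38.7 CPM per kb in WT, with overlapping libraries, so the order of this pair rests on the length used.

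**Figure D1:**
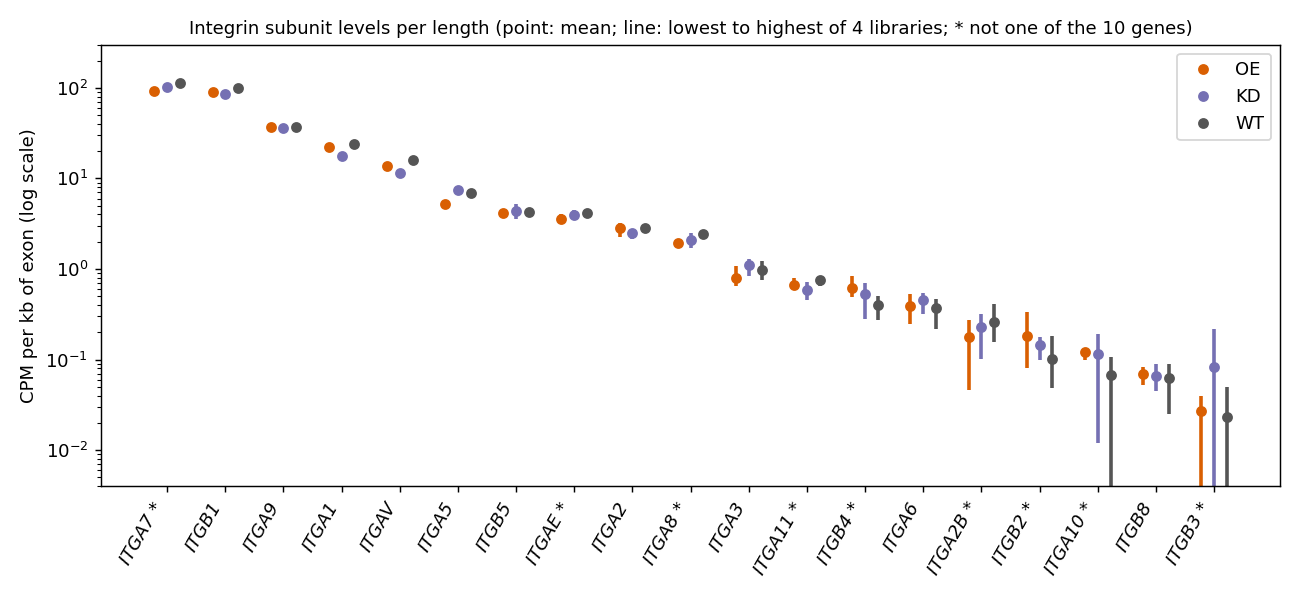
Level of each integrin subunit in CPM per kb of exon (log scale), with the groups OE, KD and WT side by side; points are means of 4 libraries, lines run from the lowest to the highest library, and a line to the foot of the plot includes a library at 0. ITGA7 and ITGB1 lie near 100 CPM per kb, the collagen, fibronectin and alphaV subunits lie lower, and ITGB8 lies below 0.1 CPM per kb.

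Seen as shares of the summed alpha subunits that can pair with ITGB1, ITGA7 made up 51.9 ± 1.23% in OE, 56.1 ± 0.586% in KD and 55.4 ± 0.789% in WT (SD, n = 4 each). ITGA1 made up 12.7 ± 0.454% in OE, 9.67 ± 0.641% in KD and 11.8 ± 0.554% in WT. ITGA5 made up 2.93 ± 0.134% in OE, 4.14 ± 0.206% in KD and 3.39 ± 0.265% in WT. Every KD library thus had a smaller ITGA1 share and a larger ITGA5 share than every OE or WT library. The ratio of ITGA1 to ITGA5 per length was 4.34 ± 0.322 in OE, 2.35 ± 0.254 in KD and 3.49 ± 0.415 in WT, and no OE or WT library was as low as the highest KD library (2.53). The ratio of ITGAV to ITGA5 was 2.68 ± 0.24 in OE, 1.56 ± 0.176 in KD and 2.29 ± 0.218 in WT. ITGA9 made up 19.7 to 21.4% in OE, 19.5 to 20.5% in KD and 17.8 to 18.4% in WT. The summed alpha partners stood at 1.95 ± 0.106 times the level of ITGB1 in OE, 2.11 ± 0.0943 in KD and 2.05 ± 0.0271 in WT, with overlapping libraries. With the longest transcripts as lengths, the WT shares were 59.8% for ITGA7, 14.1% for ITGA1 and 13.2% for ITGA9. The sizes of the shares, and the order of ITGA1 and ITGA9 in WT, thus rest on the length used. These shares are descriptions without a test, and transcript ratios need not match those of the proteins.

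Across the comparisons, 4 of the 10 genes passed the test in OE against KD, and 3 each when KD or OE was set against WT. Without OE replicate 6 the count in OE against WT was 1. A gene was called when the adjusted p of edgeR's quasi-likelihood test was under 0.05. In OE against KD, ITGA1 and ITGAV were higher and ITGA5 and ITGA3 lower, where 13.8% of all 15916 genes tested were called, 7.27% as higher and 6.55% as lower. In KD against WT, ITGA1, ITGAV and ITGB1 were lower, where 9.06% of all genes were called, 3.84% as higher and 5.22% as lower. In OE against WT, ITGA5, ITGB1 and ITGAV were lower, where 5.0% of all genes were called, 2.13% as higher and 2.87% as lower. None of the 10 genes was called higher in KD or OE than in WT. The libraries of the groups did not overlap for 4 of the 10 genes in OE against KD (16.2% of all genes), for 3 in KD against WT (12.8%) and for 3 in OE against WT (11.8%). The KD and OE comparisons share the WT libraries, so lower values in both are not independent of each other.

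The median log2 fold change of the 10 genes was 0.046 in OE against KD (-0.002 over all genes tested), -0.007 in KD against WT (0.005) and, lowest, -0.079 in OE against WT (0.002). Of the 10 genes, 7 averaged at least 20 CPM, a limit chosen after the values were seen, and 3 of these were called in each comparison. Among all 8124 genes at that level, 21.4% were called in OE against KD, 14.1% in KD against WT and, at the lowest, 7.63% in OE against WT. Over all genes, 611 were called higher and 831 lower in KD against WT, and 967 and 624 with scaling by library size alone, where the median of all genes was 0.036 instead of 0.005. In OE against WT 339 were called higher and 457 lower, and 487 and 369 with that scaling. Under it every called integrin gene kept its direction, and ITGAV in OE against WT was no longer called.

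**Figure D2:**
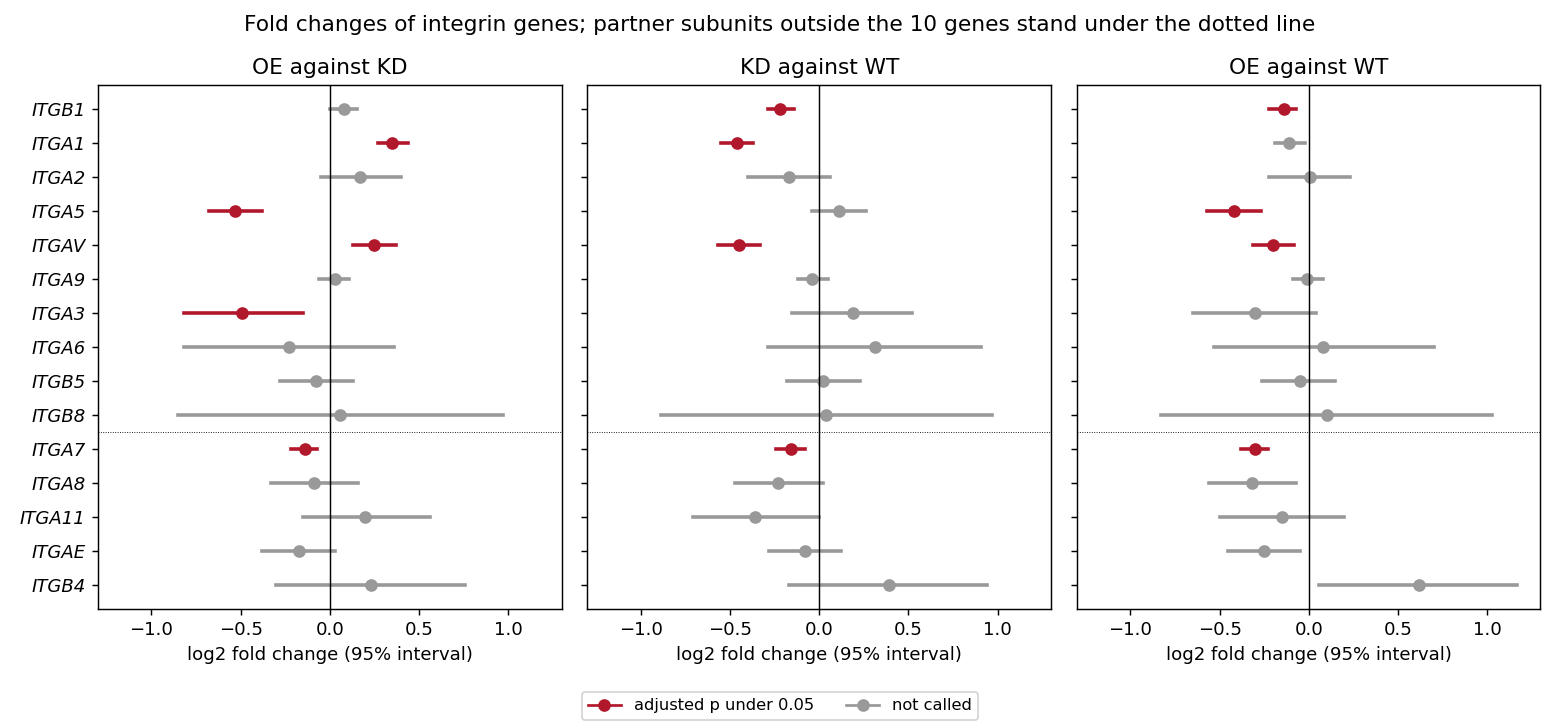
Log2 fold changes with 95% intervals in OE against KD, KD against WT and OE against WT. The 10 integrin genes lie above the dotted line and 5 other integrin subunits under it. Red marks an adjusted p under 0.05: ITGA1 and ITGAV lie right of 0 in OE against KD and left of it in KD against WT, while ITGA5 lies left of 0 in both comparisons of OE.

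ITGB1 (ENSG00000150093, GRCh38 chromosome 10, 32900319 to 33005792, minus strand) encodes beta1, the subunit shared by most of the alpha subunits measured. It stood at 552, 545, 542 and 538 CPM in OE, at 533, 504, 492 and 537 CPM in KD, and at 603, 595, 585 and 618 CPM in WT. Both engineered groups lay below every WT library, and the OE and KD libraries did not overlap by a narrow margin. On the log2 scale ITGB1 was -0.22 ± 0.04 (SE) in KD against WT (adjusted p = 2.89e-05, edgeR quasi-likelihood test) and -0.14 ± 0.04 in OE against WT (adjusted p = 0.0131). The KD call held without any 1 library (-0.23 to -0.19), and the OE call was lost without OE replicate 6 (adjusted p = 0.0614). Between OE and KD the difference was 0.08 ± 0.04, with a 95% interval of 0.0 to 0.15, and was not called (adjusted p = 0.187). The processed pseudogene ITGB1P1, which resembles part of the ITGB1 transcript, held counts equal to 4.16 to 5.25% of those of ITGB1, and it was called in no comparison.

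The collagen receptor subunit ITGA1 (ENSG00000213949, chromosome 5, 52787896 to 52959210) had the smallest adjusted p of the 10 genes. Its levels were 409, 413, 418 and 419 CPM in OE, 294, 326, 334 and 344 CPM in KD, and 444, 414, 443 and 484 CPM in WT. All KD libraries lay below all others, and OE overlapped with WT. ITGA1 was 0.35 ± 0.04 higher on the log2 scale in OE against KD (edgeR quasi-likelihood adjusted p = 1.85e-08), a fold of 1.28. It fell by 0.46 ± 0.04 in KD against WT (adjusted p = 1.74e-11), a fold of 0.727. Without KD replicate 3, its lowest library, the values were 0.31 and -0.41 and both were called. The difference between OE and WT was -0.11 ± 0.04 (95% interval -0.19 to -0.02), which missed the threshold (adjusted p = 0.166) and passed it when only these groups were fitted (adjusted p = 0.0415).

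PELO, a gene for a ribosome rescue factor, lies inside ITGA1 on the same strand and shares 475 of the 18566 exon bases annotated for ITGA1. Its annotated start, 52787940, also falls inside the ITGA1 promoter window shown above. PELO averaged 86.8 CPM in OE, 94.9 CPM in KD and 88.4 CPM in WT and was called in no comparison, with a log2 fold change of 0.10 in KD against WT (adjusted p = 0.332). How reads in the shared bases were assigned is not stated. ITGA2 (ENSG00000164171, chromosome 5, 52989326 to 53094779), the other collagen receptor subunit among the 10 genes, starts 30.1 kb beyond the end of ITGA1. It stood at 21.5, 17.6, 25.2 and 25.3 CPM in OE, 16.7, 21.8, 20.6 and 20.7 CPM in KD, and 21.6, 22.2, 22.8 and 23.1 CPM in WT. The groups overlapped in each comparison and none was called. Its difference in KD against WT was -0.17 with a 95% interval of -0.40 to 0.06. The other collagen-binding alphas, ITGA10 and ITGA11, averaged 0.769 and 7.32 CPM in OE, 0.723 and 6.37 CPM in KD, and 0.429 and 8.18 CPM in WT, and neither was called.

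**Figure D3:**
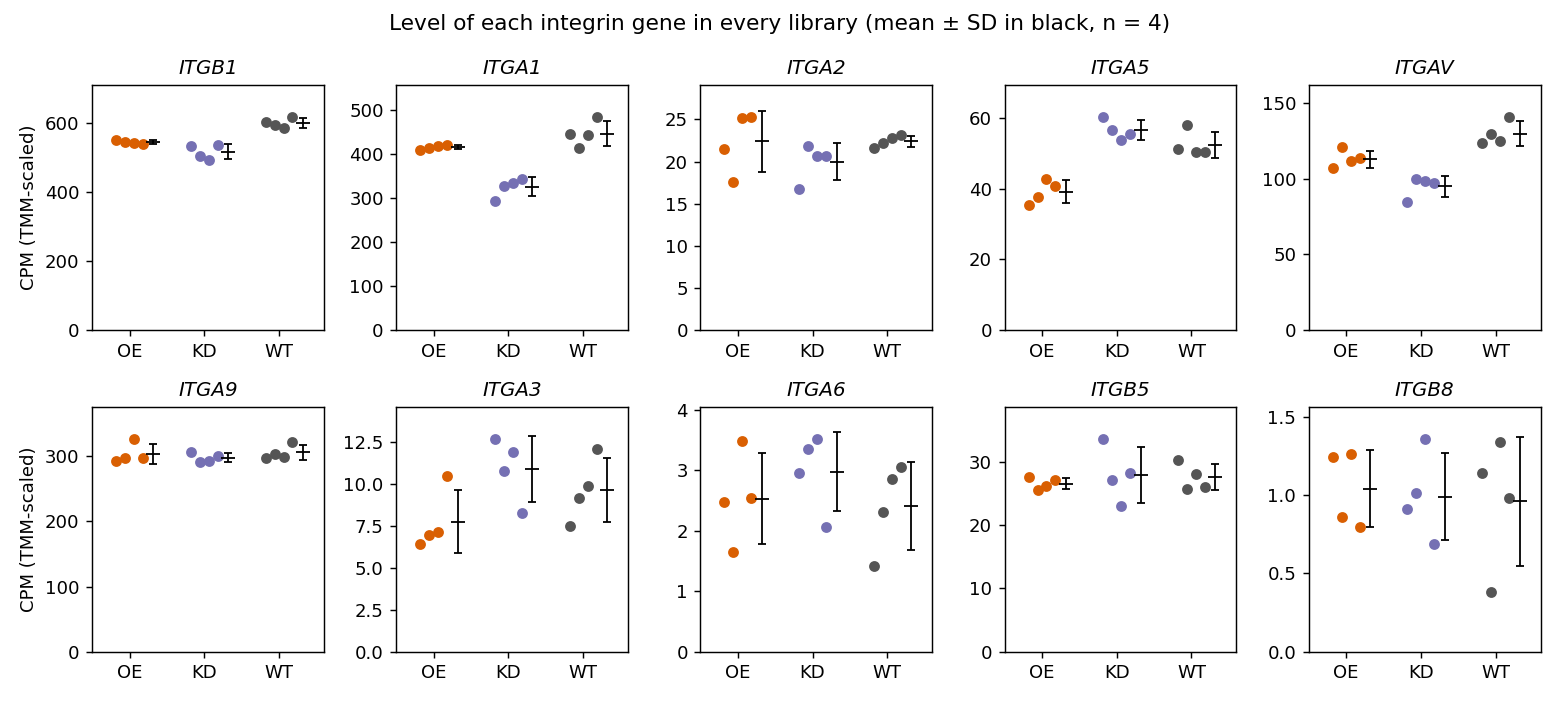
CPM of each of the 10 integrin genes in every library of OE, KD and WT, each panel starting at 0 on its own scale; black bars give the mean and SD of 4 libraries. ITGA1 and ITGAV are lowest in all KD libraries, ITGA5 is lowest in all OE libraries, and ITGA9 lies near 300 CPM in all 3 groups.

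ITGA5 (ENSG00000161638, chromosome 12, 54395261 to 54419460, minus strand), whose product pairs with beta1 as the main fibronectin receptor, was lower in OE. Its levels were 35.4, 37.6, 42.8 and 40.9 CPM in OE, 60.4, 56.7, 53.9 and 55.6 CPM in KD, and 51.3, 58.0, 50.4 and 50.5 CPM in WT. Every OE library lay below every other library, and KD overlapped with WT. ITGA5 fell by 0.53 ± 0.08 on the log2 scale in OE against KD (edgeR quasi-likelihood adjusted p = 4.81e-07) and by 0.42 ± 0.08 in OE against WT (adjusted p = 0.000135). These were folds of 0.693 and 0.747. In KD against WT the difference was 0.11 ± 0.07 with a 95% interval of -0.04 to 0.26 and was not called (adjusted p = 0.421). Without KD replicate 3 the fall in OE against KD was -0.50 and still called.

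ITGAV (ENSG00000138448, chromosome 2, 186590065 to 186680901) encodes alphaV, which binds vitronectin, fibronectin and other RGD proteins with several beta subunits. It stood at 107, 121, 112 and 114 CPM in OE, 84.8, 100, 98.4 and 97.3 CPM in KD, and 124, 130, 125 and 141 CPM in WT. The 3 groups did not overlap, with KD lowest and OE between KD and WT. ITGAV was 0.25 ± 0.06 higher on the log2 scale in OE against KD (edgeR quasi-likelihood adjusted p = 0.00155) and fell by 0.45 ± 0.06 in KD against WT (adjusted p = 1.04e-07). Without KD replicate 3, its lowest library, the values were 0.20 and -0.40 and both were called. In OE against WT it fell by 0.20 ± 0.06 (adjusted p = 0.0329). That call was lost without any 1 of 5 libraries (WT replicates 4 and 6, OE replicates 3, 5 and 6), with adjusted p of 0.0666 to 0.147, and was kept without any 1 of the other 7 libraries.

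Besides ITGB1, the alphaV partners among the 10 genes were ITGB5 and ITGB8, and neither was called in any comparison. ITGB5 (ENSG00000082781, chromosome 3, 124761948 to 124901418, minus strand), for beta5, which forms a vitronectin receptor with alphaV, stood at 27.7, 25.6, 26.2 and 27.1 CPM in OE, 33.7, 27.2, 23.0 and 28.2 CPM in KD, and 30.3, 25.7, 28.1 and 26.1 CPM in WT. The groups overlapped, and the 95% interval of its log2 difference in OE against KD ran from -0.28 to 0.13. Per length, ITGB5 reached 0.3 ± 0.0245 of the ITGAV level in OE, 0.38 ± 0.0897 in KD and 0.272 ± 0.0341 in WT. ITGB8 (ENSG00000105855, chromosome 7, 20330702 to 20415754), for the beta8 subunit that binds latent TGF-beta with alphaV, had 4 to 17 counts a library. It averaged 1.04 CPM in OE, 0.99 CPM in KD and 0.959 CPM in WT, and its 95% intervals spanned at least -0.83 to 0.97, so smaller changes were not detectable at this depth. ITGB3 and ITGB6, further partners of alphaV, had at most 12 and 4 counts and did not pass the filter.

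ITGA9 (ENSG00000144668, chromosome 3, 37452115 to 37823514), whose product binds tenascin C and osteopontin with beta1, showed no called difference. Its levels were 293, 298, 327 and 297 CPM in OE, 306, 291, 293 and 301 CPM in KD, and 298, 304, 299 and 322 CPM in WT. All groups overlapped. Its log2 differences were 0.03 (95% interval -0.06 to 0.11) in OE against KD, -0.04 (-0.12 to 0.05) in KD against WT and -0.01 (-0.09 to 0.08) in OE against WT, and none was called. It had 2961 to 4133 counts a library.

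Among the laminin receptor subunits, ITGA3 (ENSG00000005884, chromosome 17, 50055968 to 50090481) stood at 6.39, 6.97, 7.12 and 10.5 CPM in OE, 12.7, 10.8, 11.9 and 8.24 CPM in KD, and 7.47, 9.18, 9.88 and 12.1 CPM in WT. OE replicate 6 and KD replicate 6 crossed, so the groups overlapped. ITGA3 was called in OE against KD, where it fell by 0.49 ± 0.17 on the log2 scale (edgeR quasi-likelihood adjusted p = 0.0422). That call held in 5 of 12 fits that left out 1 library, with adjusted p of 0.00833 to 0.149, and was lost without KD replicate 3 (0.142). The other libraries whose loss ended it were WT replicate 5, KD replicates 4 and 5, and OE replicates 3, 4 and 5. ITGA6 (ENSG00000091409, chromosome 2, 172427354 to 172506282) had 15 to 44 counts a library, averaged 2.53 CPM in OE, 2.97 CPM in KD and 2.4 CPM in WT, and was not called. ITGB4, which pairs with ITGA6 in epithelial cells, averaged 4.15 CPM in OE, 3.54 CPM in KD and 2.7 CPM in WT and was not called either.

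ITGA7 (ENSG00000135424, chromosome 12, 55684568 to 55716043, minus strand), a laminin receptor subunit best known from muscle, was the only 1 of 8 tested subunits outside the 10 genes to be called. It stood at 566, 542, 612 and 620 CPM in OE, 652, 647, 649 and 636 CPM in KD, and 719, 723, 717 and 731 CPM in WT. The groups did not overlap, with OE lowest and WT highest. ITGA7 fell by 0.14 ± 0.04 on the log2 scale in OE against KD (edgeR quasi-likelihood adjusted p = 0.00565), by 0.16 ± 0.04 in KD against WT (adjusted p = 0.00263) and by 0.30 ± 0.04 in OE against WT (adjusted p = 3.77e-08). The first of these was lost without OE replicate 4 (adjusted p = 0.0577), and without KD replicate 3 the values in OE against KD and KD against WT were -0.14 and -0.17, both called. The other tested subunits, ITGA2B, ITGA8, ITGA10, ITGA11, ITGAE, ITGB2 and ITGB4, were not called in any comparison. The 8 subunits that did not pass the filter were ITGA4, ITGAD, ITGAL, ITGAM, ITGAX, ITGB3, ITGB6 and ITGB7, most of them known from blood cells.

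Ligands were read from lists beside the receptors. Of 14 tested laminins and basement membrane genes, 4 were higher and 3 lower in OE against KD, 1 higher and 3 lower in KD against WT, and 1 higher and 3 lower in OE against WT. LAMA2, LAMB1 and LAMC1, the chains of the laminin that alpha7 binds in muscle, averaged 211, 679 and 344 CPM in OE, 157, 527 and 312 CPM in KD, and 220, 626 and 470 CPM in WT. In KD against WT they fell by 0.48 ± 0.05 (LAMA2, adjusted p = 1.56e-09), by 0.25 ± 0.04 (LAMB1, adjusted p = 1.61e-06) and by 0.59 ± 0.04 (LAMC1, adjusted p = 2.14e-15), all by edgeR's quasi-likelihood test. The list medians were -0.056 in OE against KD, -0.03 in KD against WT and, lowest, -0.104 in OE against WT. In OE against WT, LAMC1 fell by 0.45 ± 0.04, LAMB1 was 0.12 ± 0.04 higher and LAMA2 was not called (adjusted p of 3.23e-11, 0.0409 and 0.653 by the same test).

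Of 14 tested collagens bound by collagen receptors, 3 were higher and 3 lower in OE against KD, none higher and 3 lower in KD against WT, and 1 higher and 6 lower in OE against WT. The median log2 fold change of this list was -0.12 in OE against KD, -0.111 in KD against WT and, lowest, -0.385 in OE against WT, beside 0.002 over all genes in the last. COL4A1 and COL4A2, the main chains of basement membrane collagen, averaged 199 and 423 CPM in OE, 331 and 641 CPM in KD, and 317 and 597 CPM in WT. They fell by 0.73 and 0.60 in OE against KD and by 0.67 and 0.50 in OE against WT (by edgeR's quasi-likelihood test, adjusted p at most 4.12e-11), and were not called in KD against WT. COL6A2, a collagen VI chain, averaged 86.7 CPM in OE, 60.6 CPM in KD and 156 CPM in WT. COL6A2 was thus lower in both engineered groups than in WT, as ITGB1 was. COL4A1 and COL4A2 were lower in OE, as ITGA5 was. The collagen receptor subunit ITGA1 was instead 0.35 higher on the log2 scale in OE against KD, opposite to COL4A1 and COL4A2. Like ITGA1, COL6A2 was lowest in KD, and COL11A1 was also 0.35 higher in OE against KD.

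Of 16 tested fibronectin, vitronectin and RGD ligands, 3 were higher and 3 lower in OE against KD, 4 higher and 3 lower in KD against WT, and none higher and 3 lower in OE against WT. The shares called in this list were 37.5%, 43.8% and 18.8% in that order, beside 13.8%, 9.06% and 5.0% of all genes. Its medians were -0.102 in OE against KD, 0.078 (the highest) in KD against WT and then -0.045 in OE against WT. FN1, for fibronectin, averaged 7.11 CPM in OE, 40.6 CPM in KD and 18.7 CPM in WT, and its changes in the 3 comparisons (-2.51, 1.12 and -1.39 on the log2 scale) were all called (edgeR, adjusted p at most 1.9e-11). Its receptor subunit ITGA5 had -0.53, 0.11 and -0.42 in the same order, of which the second was not called. TNC, for tenascin C, averaged 3.32 CPM in OE, 20.4 CPM in KD and 8.12 CPM in WT, and SPP1, for osteopontin, averaged 28.4 CPM in OE, 58.2 CPM in KD and 39.3 CPM in WT, and both were called in all comparisons. ITGA9, the subunit that binds both, was called in none. FBN2, for fibrillin 2, which alphaV integrins bind, averaged 155 CPM in OE, 83.5 CPM in KD and 184 CPM in WT. It was lowest in KD, as ITGAV was, and OE and WT were not called apart (adjusted p = 0.13, edgeR). FN1, TNC and SPP1, of the same list, were instead highest in KD, where ITGAV was lowest.

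**Figure D4:**
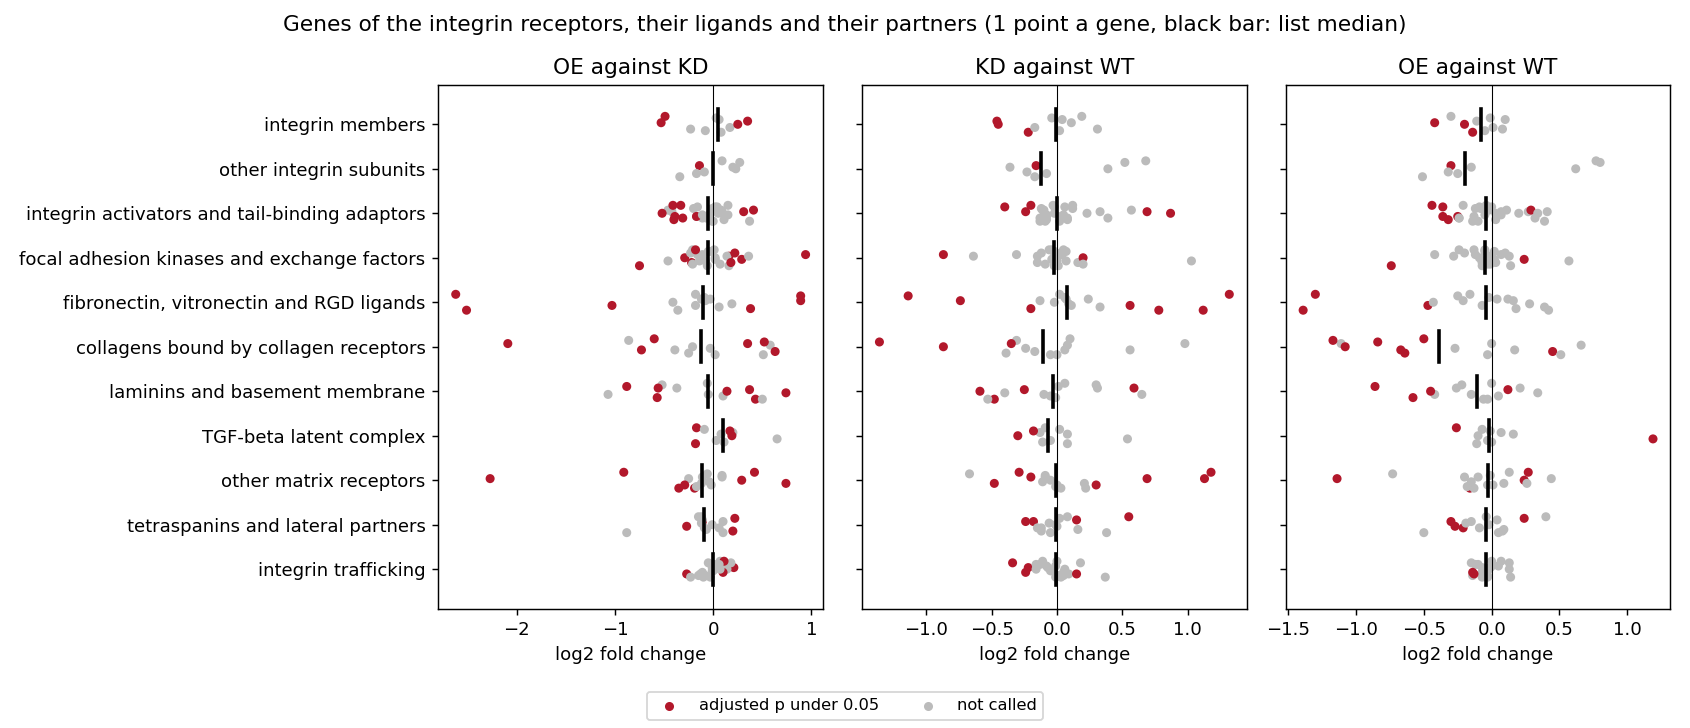
Log2 fold change of every tested gene in the lists of integrin subunits, ligands, adaptors and partners, in OE against KD, KD against WT and OE against WT (1 point a gene, red for adjusted p under 0.05, black bar for the list median). The ligand lists hold the widest changes, with FN1 and TNC among the genes below -2 in OE against KD, and the 10 integrin genes lie between -0.53 and 0.35.

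Inside the cell, 9 of 30 tested activators and tail-binding adaptors were called in OE against KD (2 higher, 7 lower), 5 in KD against WT (2 higher, 3 lower) and 6 in OE against WT (1 higher, 5 lower). The medians of this list were -0.05, 0.001 and -0.048 in that order. TLN1, for talin, averaged 502 CPM in OE, 507 CPM in KD and 540 CPM in WT and was not called, nor was FERMT2, for a kindlin. FLNA, for the actin crosslinker filamin A that binds beta tails, averaged 1294 CPM in OE, 1718 CPM in KD and 1759 CPM in WT. It fell by 0.44 ± 0.07 in OE against WT (edgeR quasi-likelihood adjusted p = 0.00592) and was not called in KD against WT. ZYX, for the focal adhesion protein zyxin, averaged 30.2 CPM in OE, 39.8 CPM in KD and 37.8 CPM in WT and fell in both comparisons of OE. PARVA, for an adaptor that joins integrins to actin, averaged 9.18 CPM in OE, 12.3 CPM in KD and 7.62 CPM in WT and was 0.69 ± 0.16 higher in KD against WT (adjusted p = 0.00223). KD replicate 3 was its highest library at 16.3 CPM, and without it the value was 0.52 (adjusted p = 0.0385). ILK, its binding partner, had 1 to 15 counts a library and did not pass the filter. Of its exon bases, 68.1% overlap TAF10 on the opposite strand, which had 34 to 75 counts a library, and the part of that overlap in the low counts was not tested.

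Of 27 tested focal adhesion kinases and exchange factors, 9 were called in OE against KD (5 higher, 4 lower), 2 in KD against WT, with 2 in OE against WT. These were 33.3%, 7.41% and 7.41% of the list, beside 13.8%, 9.06% and 5.0% of all genes. Among genes averaging at least 20 CPM, 21.4%, 14.1% and 7.63% were called. PTK2, for focal adhesion kinase, averaged 64.3 CPM in OE, 57.5 CPM in KD and 58.4 CPM in WT and was not called. ROCK2, a kinase that acts on actomyosin, averaged 119 CPM in OE, 97.7 CPM in KD and 101 CPM in WT and was 0.29 ± 0.06 higher in OE against KD and 0.24 ± 0.06 higher in OE against WT (adjusted p = 0.000305 and 0.00592). Of 15 tested tetraspanins and lateral partners, 4 (26.7%) were called in each comparison. CD63, for a tetraspanin of endosomes, averaged 923 CPM in OE, 998 CPM in KD and 1135 CPM in WT and was called lower in all comparisons, though not in OE against KD without KD replicate 3 (adjusted p = 0.0743). Of 23 tested genes of integrin trafficking, 4 (17.4%) were called in OE against KD, 4 (17.4%) in KD against WT and, fewest, 2 (8.7%) in OE against WT. Beside these and the tetraspanin shares stand the same 21.4%, 14.1% and 7.63% of genes averaging at least 20 CPM. DAB2, a clathrin adaptor that takes up beta1 integrins, averaged 899 CPM in OE, 839 CPM in KD and 992 CPM in WT. It fell by 0.24 ± 0.03 in KD against WT (edgeR quasi-likelihood adjusted p = 4.06e-07) and by 0.14 ± 0.03 in OE against WT (adjusted p = 0.00407). RAB11A, for a recycling GTPase, averaged 737 CPM in OE, 637 CPM in KD and 740 CPM in WT and was 0.21 ± 0.04 higher in OE against KD and fell by 0.22 ± 0.04 in KD against WT.

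Receptors for matrix other than integrins were called in 8 of 17 tested genes (47.1%) in OE against KD, 7 (41.2%) in KD against WT, with 4 (23.5%) in OE against WT. Over all genes tested the shares were 13.8%, 9.06% and 5.0% in that order. ADGRG1, an adhesion receptor for collagen III, averaged 5.46 CPM in OE, 26.2 CPM in KD and 11.9 CPM in WT, with log2 fold changes of -2.27, 1.13 and -1.14 in the 3 comparisons. DAG1, for dystroglycan, a laminin receptor, averaged 169 CPM in OE, 193 CPM in KD and 189 CPM in WT and was lower in both comparisons of OE. In the list of the TGF-beta latent complex, 4 of 10 tested genes were called in OE against KD and 2 each when KD or OE was set against WT. TGFBR1, for the type I receptor, averaged 173 CPM in OE, 151 CPM in KD and 186 CPM in WT, and LTBP1, for a latency binding protein, averaged 248 CPM in OE, 279 CPM in KD and 298 CPM in WT. TGFBR1 fell by 0.30 ± 0.05 in KD against WT (edgeR quasi-likelihood adjusted p = 2.33e-05), and LTBP1 fell by 0.26 ± 0.04 in OE against WT (adjusted p = 7.8e-06).

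Without KD replicate 3, every called change given above for LAMA2, LAMB1, LAMC1, COL4A1, COL4A2, FN1, TNC, SPP1, RAB11A, TGFBR1, ADGRG1 and DAG1 kept its direction and its call. The same held for COL6A2, COL11A1, FBN2, ZYX and ROCK2. The falls of DAB2 and CD63 in KD against WT were then -0.22 and -0.2, and both were called. In OE against KD the counts called were then 8 of 30 activators and adaptors, 7 of 27 kinases and exchange factors, 6 of 16 RGD ligands, 7 of 16 collagens and 7 of 14 laminins and basement membrane genes. In KD against WT they were 6, 2, 6, 3 and 3 in that order. Of the other matrix receptors 9 of 18 were called in OE against KD and 7 in KD against WT, and of the trafficking genes 3 of 23 in both. The TGF-beta list had 3 of 10 called in OE against KD and 2 in KD against WT, and the tetraspanin list 4 and 5 of 15. That fit also called 7 of 18 other matrix receptors in OE against WT, against 4 of 17 with all libraries. RGD ligands called there rose from 3 to 4 and tetraspanins from 4 to 5. Over all genes, 466 were called higher and 598 lower in OE against WT, against 339 and 457 with all libraries. In OE against KD, 1005 of all genes were then called higher and 796 lower, against 1157 and 1043 with all libraries. In KD against WT, 482 were called higher and 754 lower, against 611 and 831. The shifts in the list counts stand beside these shifts over all genes.

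The chromosomal surroundings of the changed integrin genes were read next. Within 5 Mb of ITGA1, the median log2 difference of 24 tested genes was -0.042 in KD against WT, beside -0.46 for ITGA1 itself, and 2 were called higher and 2 lower. Around ITGB1 the median of 32 genes was -0.024 in KD against WT, with 2 called lower. For OE against WT it was -0.045, beside -0.14 for ITGB1, with 1 called lower. Within 1 Mb of ITGB1 the median of 6 genes was -0.224 for OE against WT, and -0.058 when KD was set against WT. NRP1, 0.28 Mb from ITGB1, was called lower than WT in OE (-0.54) as well as KD (-0.68). The part of these neighbours in the lower ITGB1 level was not tested. Around ITGA5 the median of 173 genes was 0.003 in OE against WT. Around ITGAV the median of 34 genes was -0.052 in KD against WT, beside -0.45 for ITGAV. In OE against KD it was 0.138, beside 0.25 for ITGAV, with 3 called higher and 1 lower. The median of the neighbours thus lay on the same side as ITGAV in that comparison, and its part in the higher ITGAV level was not tested.

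**Figure D5:**
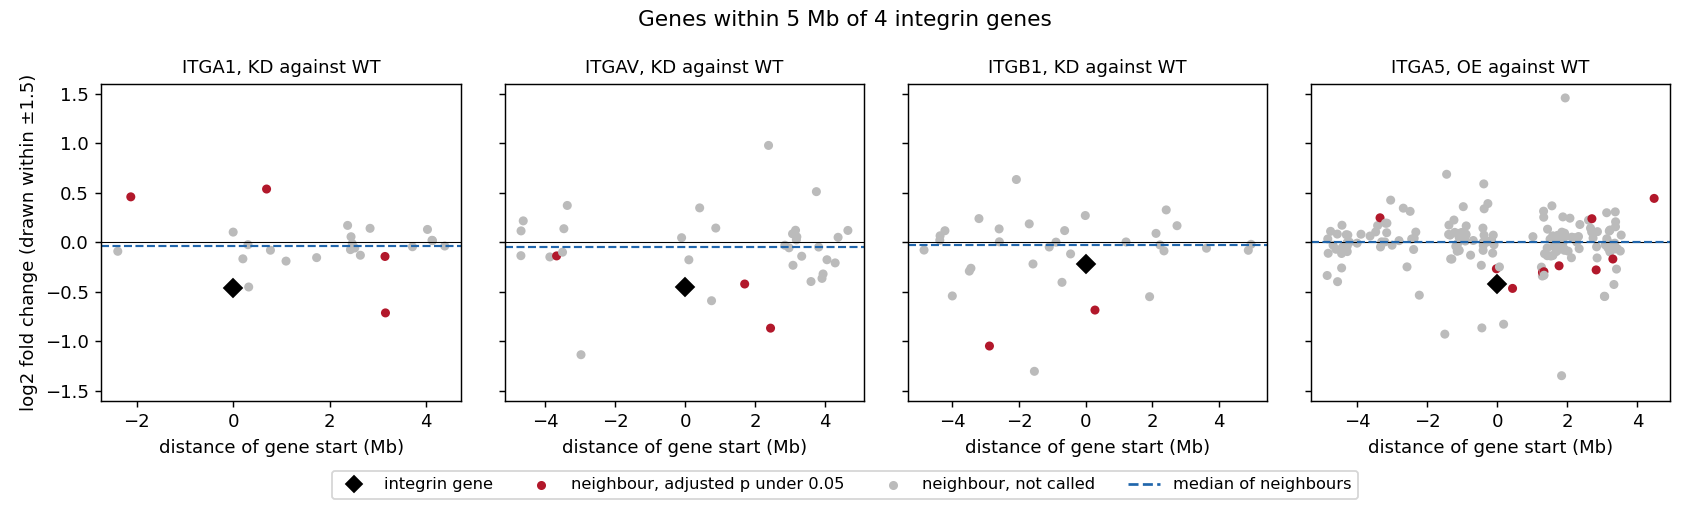
Log2 fold changes of the tested genes within 5 Mb of ITGA1, ITGAV and ITGB1 in KD against WT and of ITGA5 in OE against WT, by distance from the start of the integrin gene in Mb (red for adjusted p under 0.05, dashed line for the median of the neighbours, black diamond for the integrin gene). The medians lie between -0.052 and 0.003, and each integrin gene lies below its neighbours' median.

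The genes whose centred log2 levels over the 12 libraries were nearest to an integrin gene, by the root mean square difference among 11040 protein-coding genes, were also read. For ITGA1 these were RDX (0.0682), for the membrane and actin linker radixin, SLC39A14 (0.0692), for a zinc transporter, and PPIP5K2 (0.0708), for an inositol phosphate kinase. For ITGAV they were PPIP5K2 (0.0634), TMTC3 (0.0641) and MAN2A1 (0.0645), the last for a Golgi mannosidase. PPIP5K2 was thus near to both. For ITGA5 they were COL4A2 (0.0618), EMC10 (0.0779) and SERPINA5 (0.0852), beside a root mean square of 0.245 for ITGA5 about its own mean. For ITGB1, GOLM1 (0.0406) and SPARC (0.0421), the second for a collagen-binding matrix protein, were among them. For ITGA3, a scarce gene, the nearest, ETHE1 (0.182), was far by comparison. These likenesses are descriptions over libraries that share groups and depth, and carry no test.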

How the data were processed

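Raw counts per Ensembl gene and library were deposited by the authors. The build GRCh38 and the tools HISAT2 1.03, featureCounts of Subread, FastQC and DESeq2 stand in the submitters' processing notes, with no roles. The annotation release, the strand setting and the treatment of reads with several matches are not stated in these sources, which limits counts of overlapping or duplicated genes.

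Totals lines and the 1 gene with blank counts were left out. The test was edgeR 4.0.16 (R 4.3.3), after filterByExpr (at least 10 counts, total at least 15) and TMM scaling, with 1 robust quasi-likelihood model over the 12 libraries and Benjamini-Hochberg adjustment over all 15916 genes tested and a threshold of 0.05. The fit was tested on simulated data. CPM are counts scaled to TMM-adjusted library size, and intervals are 95% intervals of the fit. Lengths and coordinates came from GENCODE release 29 (GRCh38), and promoters from RefSeq. Levels per length, shares, neighbours and likeness of pattern are descriptions. Alternatives were DESeq2 1.42.0, RLE factors, library sizes alone, no filter, fitting only the groups compared, a replicate block, leaving out each library and leaving out mitochondrial genes.

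Named genes were the 10 integrin genes, DLK1, every other subunit that passed the filter or reached 10 counts, the called genes of lowest adjusted p in each list (at most 4 a comparison), and the 3 genes nearest in pattern to each called integrin gene. Some items under this rule are not reported here. TLN1, FERMT2, PTK2, ILK, PELO, TAF10, ITGB1P1 and the subunits under 10 counts stand outside that rule. The 10 genes and the lists were chosen with earlier results of these data known.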

Additional observations from a re-analysis of the deposited data

Results flagged for a closer look

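In 54 groups of 4 libraries, each integrin subunit tested was checked for a library whose gap to the nearest other, divided by the range of the group, exceeded the Dixon value of 0.829. By chance about 1 in 20 such groups exceeds it, and 2 did here. ITGA5 in WT replicate 4 was at 58.0 CPM, with the other WT libraries at 50.4 to 51.3 CPM. ITGA9 in OE replicate 5 was at 327 CPM, with the other OE libraries at 293 to 298 CPM. Over all libraries left out in turn, ITGA5 in OE against WT ran from -0.46 to -0.37 on the log2 scale and was called in each of the 12 fits, while ITGA9 was called in none.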

How the results depend on the processing

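The 10 called results of the integrin genes kept their direction under all 19 alternatives each: of 190 values, 176 stayed called and 14 did not. Those lost were ITGA3 in OE against KD (7 libraries), ITGAV in OE against WT (5 libraries and library sizes alone, adjusted p = 0.0655) and ITGB1 in OE against WT (OE replicate 6). The cause was not tested. The number of the 10 genes called ranged over left-out libraries from 1 to 3 in OE against WT, from 3 to 4 in OE against KD and stayed at 3 in KD against WT. Over all genes, fitting only the groups compared gave 1236 calls in OE against WT, against 796, and left-out libraries gave 563 to 1064 there, 1032 to 1557 in KD against WT and 1660 to 2220 in OE against KD.

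Changes of sign occurred only in differences that were not called. With a replicate block, ITGA2 in OE against WT was -0.0036. With library sizes alone, ITGA9 in OE against WT was 0.01. Over left-out libraries the log2 fold changes in OE against KD ran from -0.01 to 0.05 for ITGA9, -0.16 to 0.03 for ITGB5, -0.07 to 0.25 for ITGB8, -0.17 to 0.01 for ITGA8 and -0.19 to 0.52 for ITGB2. In KD against WT they ran from -0.08 to 0.11 for ITGB5, -0.22 to 0.26 for ITGB8 and -0.37 to 0.13 for ITGA2B. In OE against WT they ran from -0.06 to 0.1 for ITGA2, -0.11 to 0.24 for ITGA6, -0.04 to 0.02 for ITGA9 and -0.16 to 0.32 for ITGB8.

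Replicates with the same number gave no sign of pairing: 12 correlations of their deviations over all genes tested ran from -0.0328 to 0.0713, none over 0.1. For different numbers, 36 correlations ran from -0.0853 to 0.0718. Counting noise lowers such values, so pairing that touches only part of the genes could be missed. The replicate block gave 2082 called genes in OE against KD, 1327 in KD against WT, with 735 in OE against WT, with 4, 3 and 3 of the 10 integrin genes. Longest transcripts in place of all exons gave an ITGA1 to ITGA5 ratio of 4.94 in OE, 2.67 in KD and 3.97 in WT. Counts under 50 a library limit ITGA6 and ITGB8.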
